A study of Mus musculus with 10 samples.

Results

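Eph receptors and ephrins are cell surface proteins of the developing cortex, and 10 of their genes were followed here in the midline cortex of mouse embryos: the receptors Epha4, Epha5, Epha7, Ephb1, Ephb2 and Ephb3 and the ligands Efna5, Efnb1, Efnb2 and Efnb3. The rule that chose them used gene symbols and no measured value, but earlier results of these data were known. They make up 10 of the 16338 genes in the RNA-seq table. The same symbols were named for 19 of the 6995 peaks in the ChIP-seq table. The RNA-seq compared conditional knockout (cKO) embryos of genotype Rcor2 f/f with EMX1-iCRE (2 libraries) with control embryos of genotype Rcor2 f/f without the Cre (2 libraries), so that both groups carried the floxed Rcor2 allele. The ChIP-seq used wild-type midline cortex, with 2 libraries each from an antibody against Rcor2, from rabbit IgG and from input DNA. All samples came from the C57/Bl6 strain at embryonic day 14.5. Rcor2 is a corepressor of the CoREST family, which brings the histone demethylase Lsd1 and histone deacetylases to chromatin. Emx1 is active in progenitors of the dorsal telencephalon, so a Cre under its control leaves Rcor2 in cells of other origin, such as interneurons born ventrally, blood vessels and meninges. Nothing in the labels says how many embryos went into a library or whether libraries came from separate litters, so the p-values measure the spread between these libraries only.

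Eph receptors are receptor tyrosine kinases and ephrins are their membrane-bound ligands, so signalling takes place where cells touch. Ephrin-A ligands are held in the membrane by a lipid anchor and bind mainly EphA receptors, whereas ephrin-B ligands cross the membrane and bind mainly EphB receptors, with Epha4 able to bind both classes. Binding signals forward into the receptor cell and in reverse into the ligand cell. In the developing forebrain these proteins are known for steering axons, including callosal axons that cross the midline, for sorting cells and for regulating progenitors, and ephrin-B2 and EphB4 mark arterial and venous endothelium.

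The 4 RNA libraries held 27674987 to 30270598 reads in genes, and expression is given as the authors' normalized count, a read count divided by a factor per library. Rcor2 itself had 6363 and 6840 normalized counts in the cKO libraries, against 7901 and 7257 in the control libraries, a log2 change of -0.20 (SE 0.06, limma adjusted p = 0.0541, n = 2 each). It was lower in both cKO libraries, and whether it passed the threshold of an adjusted p under 0.05 depended on the fit. It passed with DESeq2 on the recovered reads (adjusted p = 0.0478), with limma without cKO replicate 2 (adjusted p = 0.00960) and in the authors' deposited table (adjusted p = 0.0444), but not with edgeR (adjusted p = 0.1003). A whole-gene count does not show how much of the transcript carried the deletion. Markers of the dorsal telencephalon (Emx1, Emx2, Lhx2, Tbr1, Eomes, Neurog2 and Wnt8b) were all present, with a summed level of 110.0% and 107% of the control mean in the cKO libraries, against 99.98% and 100.02% in the controls. Xist stood at 49.4 and 21449 normalized counts in the cKO libraries and at 23.4 and 20334 in the control libraries, so each group held one library of each Xist level. cKO replicate 1 stood apart in meningeal and mesenchymal markers, whose sum was 585% of the control mean there and 135% in cKO replicate 2.

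Most of the 10 genes differed little between the genotypes. Efnb2, the ephrin-B2 ligand, fell, Ephb3, a receptor for ephrin-B ligands, rose, and the other 8 did not pass the test. The 2 called genes are 20% of the 10, beside 14.5% of the 14324 genes tested, 6.16% of them higher and 8.29% lower in cKO. The median log2 change was -0.06 over the 10 genes and -0.01 over all tested genes, and the median size of change without regard to sign was 0.099 for the 10 genes and 0.129 for all tested genes. In 9 of the 10 genes the cKO and control values did not overlap, which was also true of 61.0% of tested genes. With 2 libraries a group, the fold changes below come from one limma fit over all tested genes on log2(normalized count + 1), with p-values adjusted over all of them. Because whole tissue was measured, fewer cells of a type and less RNA per cell cannot be told apart.

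**Figure D1:**
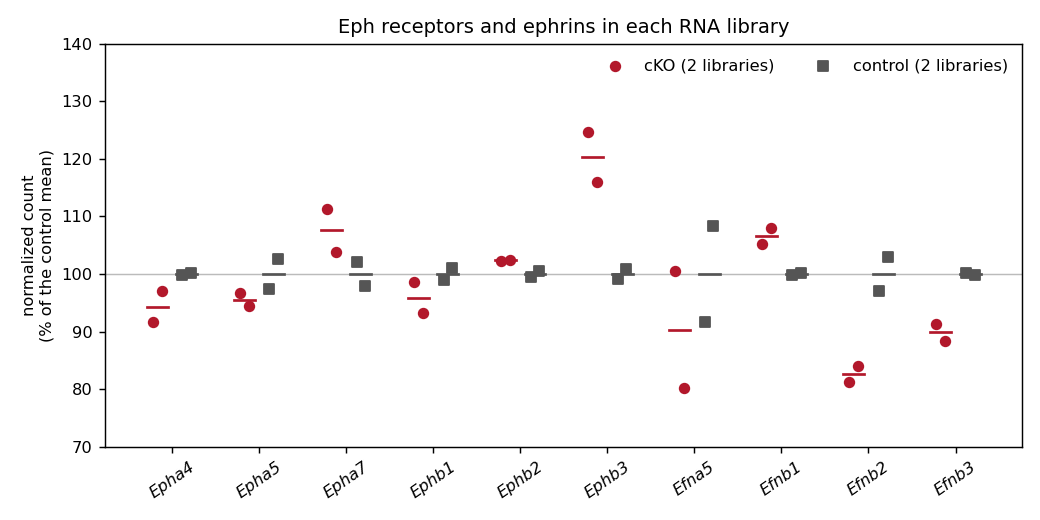
Normalized count of each of the 10 genes in each RNA library, as a percentage of the gene's control mean, with cKO libraries (circles) left of control libraries (squares) and short lines at the group means. Efnb2 sits at 81.2% and 84.0% in cKO and Ephb3 at 125% and 116%, whereas Efna5 shows overlapping groups.

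Among the ephrin-B ligands, Efnb2 had 6072 and 6284 normalized counts in cKO libraries, against 7262 and 7695 in control libraries. Both cKO values lay below both control values, and the means were 6178 ± 149.9 in cKO and 7479 ± 306 in control (SD, n = 2 each). This was a log2 change of -0.28 (SE 0.05, 95% interval -0.39 to -0.17, limma adjusted p = 0.0101), a mean 17.4% lower, while the median size of change over all called genes was 0.35. In the pair of libraries with low Xist the change was -0.26 and in the pair with high Xist -0.29. Leaving out either control leaves 1 library in that group. The Efnb2 call was then lost, as were most calls over the whole table, so the loss is not particular to Efnb2. The authors' deposited table gives Efnb2 a log2 fold change of -0.26 with an adjusted p of 0.000482.

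Efnb2 is also made by arterial endothelium. The 8 endothelial markers examined (among them Pecam1, Cdh5 and Kdr) had a summed level of 96.1% and 91.5% of the control mean in cKO libraries, against 98.5% and 101.5% in controls. None of the 8 passed with limma, edgeR or DESeq2. By limma 2 of them had an unadjusted p under 0.05, beside 4314 of the 14324 genes tested. Leaving out cKO replicate 2 changed the limma outcome for this list. The part of vessels in the Efnb2 difference was not tested.

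Efnb3, which encodes an ephrin-B made by neurons and by cells of the midline, had 1587 and 1536 normalized counts in cKO libraries, against 1742 and 1734 in control libraries. The groups did not overlap, but the log2 change of -0.15 (95% interval -0.28 to -0.03) had a limma adjusted p of 0.0872. Efnb1, an X-linked ligand known from mouse and human work on craniofacial and callosal development, had 5918 and 6070 normalized counts in cKO libraries, against 5613 and 5631 in control libraries. Its log2 change was 0.09 (95% interval -0.01 to 0.19, limma adjusted p = 0.189), so the 3 ephrin-B genes had changes of different sign.

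Efna5, the ephrin-A5 ligand that guides thalamic and retinal axons, was the gene with the fewest reads. It had 242 and 193 normalized counts in cKO libraries, against 220 and 261 in control libraries, and the groups overlapped. The log2 change was -0.15 with a wide 95% interval, -0.49 to 0.19 (limma adjusted p = 0.542). The pair of libraries with low Xist gave 0.13 and the pair with high Xist -0.43, so the difference was smaller than the spread between libraries.

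Among the EphB receptors, Ephb3 had 1127 and 1049 normalized counts in cKO libraries, against 896.2 and 912.4 in control libraries. Both cKO values exceeded both control values, with means of 1088 ± 55.1 in cKO and 904 ± 11.5 in control (SD, n = 2 each). On the log2 scale the change came to 0.27 (SE 0.07, 95% interval 0.12 to 0.42, limma adjusted p = 0.0322), a ratio of 1.20. This call was near the threshold: the adjusted p was 0.0622 with edgeR and 0.0625 with DESeq2 on the recovered reads, and 0.0646 in the authors' deposited table. The Ephb3 call was also lost on leaving out either control, as were most calls over the whole table. It was lost too without cKO replicate 1, the library with the high mesenchymal sum. The log2 difference was 0.33 between the libraries with low Xist and 0.20 between those with high Xist.

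Ephb2, the ephrin-B receptor known from mouse work on commissural axons, had 9914 and 9922 normalized counts in cKO libraries, against 9640 and 9736 in control libraries. The log2 change of 0.03 had a 95% interval of -0.06 to 0.13 (limma adjusted p = 0.629), which leaves room for only a small change in either direction. Ephb1, known for guiding retinal axons at the optic chiasm, had 3963 and 3747 normalized counts in cKO libraries, against 3981 and 4064 in control libraries, a log2 change of -0.06 (95% interval -0.17 to 0.05, limma adjusted p = 0.434). Neither receptor passed the test.

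Of the 3 EphA receptors 0 passed with limma, edgeR or DESeq2. With limma 0 of them had an unadjusted p under 0.05, beside 4314 of the 14324 genes tested. Epha4, which binds both ephrin classes and guides axons of the corticospinal tract and the anterior commissure in mice, had 27425 and 29063 normalized counts in cKO libraries, against 29906 and 29981 in control libraries. Its log2 change was -0.08 (95% interval -0.20 to 0.03, limma adjusted p = 0.286), with cKO replicate 1 the lowest of the 4 libraries. Epha5, a receptor for ephrin-A ligands on forebrain axons, had 10168 and 9935 normalized counts in cKO libraries, against 10245 and 10797 in control libraries, a log2 change of -0.07 (95% interval -0.17 to 0.04, limma adjusted p = 0.384). Epha7, which is known to regulate survival of cortical progenitors in mice, had 2896 and 2699 normalized counts in cKO libraries, against 2655 and 2545 in control libraries, a log2 change of 0.10 (95% interval -0.02 to 0.23, limma adjusted p = 0.238). In these 3 receptors the groups came close to each other without overlapping. Over all 10 genes, 6 had a 95% interval that stayed within 0.25 of 0 on the log2 scale: Epha4, Epha5, Epha7, Ephb1, Ephb2 and Efnb1. The share of all tested genes with such an interval was not counted.

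The remaining 12 genes of the Eph and ephrin family were all in the table, and 10 passed the filter of 10 normalized counts on average and were tested. Of these 10, 2 rose and 3 fell, which is 50% against 14.5% of all tested genes. All 5 also passed with edgeR, which called 12.2% of all tested genes. Only Ephb4 and Epha3 passed with DESeq2, which called 11.0% of them, and in the authors' deposited table, which leaves 2 of the 10. Efna4, Epha6 and Epha8 did not, with adjusted p of 0.0723, 0.0625 and 0.0838 by DESeq2 and of 0.0744, 0.0609 and 0.0822 in the authors' deposited table. Ephb4, the venous partner of ephrin-B2, had 1854 and 1733 normalized counts in cKO libraries, against 1300 and 1406 in controls, a log2 change of 0.41 (SE 0.06, limma adjusted p = 0.00791). Efna4, an ephrin-A ligand, rose by 0.30 (SE 0.07, limma adjusted p = 0.0273). Epha3, a receptor for ephrin-A ligands, had 4024 and 4671 normalized counts in cKO libraries, against 5782 and 6031 in controls, a log2 change of -0.45 (SE 0.07, limma adjusted p = 0.00786). Epha6 and Epha8 were low in all libraries: Epha6 had 192 and 206 normalized counts in cKO against 276 and 304 in control libraries, and Epha8 had 72.0 and 80.3 in cKO against 135.6 and 124 in control libraries. Their log2 changes were -0.54 and -0.76, with a limma adjusted p of 0.0193 for each. Epha2, Ephb6, Efna1, Efna2 and Efna3 did not pass, with log2 changes of 0.13, -0.08, -0.00, 0.07 and -0.13. Epha1 had at most 3.24 normalized counts in any library and Epha10 at most 8.78, and neither was tested.

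**Figure D2:**
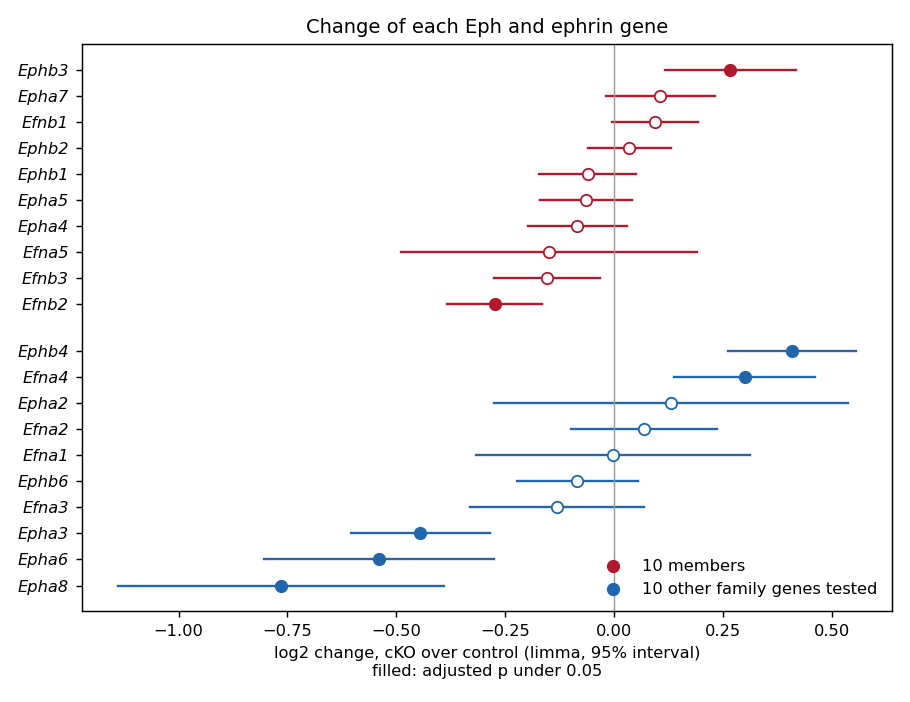
Log2 change of cKO over control for the 10 genes (upper block) and the 10 other tested family genes (lower block), with 95% intervals from the limma fit over 14324 genes; filled points have an adjusted p under 0.05. Ephb3 (0.27) and Efnb2 (-0.28) are filled in the upper block, and Ephb4, Efna4, Epha3, Epha6 and Epha8 in the lower.

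All 7 calls in the family depended on the control libraries: without control replicate 1, and likewise without control replicate 2, limma called 0 of the 10 genes and 0 of the 10 other family genes. Each of these fits leaves 1 control library, and in both all 7 genes kept the sign of their log2 change. Over the whole table the same fits called 172 and 140 genes instead of 2070.

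Proteins that carry or modify Eph and ephrin signals were examined as a list of 42 genes, all tested. Of these, 3 rose (Chn2, Abl1 and Inppl1) and 6 fell (Ptpro, Itsn1, Pak1, Grip2, Kalrn and Grb2), or 21.4% against 14.5% of all tested genes, with a median log2 change of -0.07. Ptpro, a phosphatase that removes phosphate from Eph receptors, changed by -0.37 (SE 0.06, limma adjusted p = 0.00718). Itsn1 and Kalrn, exchange factors for small GTPases that act downstream of EphB receptors, changed by -0.29 and -0.21 (limma adjusted p = 0.00778 and 0.0307). Pak1, a kinase driven by Rac and Cdc42, changed by -0.23, and Grip2, a PDZ scaffold, by -0.79 (limma adjusted p = 0.0179 and 0.0251). Chn2, a chimaerin that switches off Rac, changed by 0.51 (limma adjusted p = 0.00917). Leaving out either control leaves 1 library in that group, and most calls in this list were then lost, as over the whole table. Ptpro, Itsn1, Kalrn, Pak1, Grip2 and Chn2 kept the sign of their change in these fits.

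The markers of several cell types moved in the same comparison. Of 10 neuronal markers 8 fell, and their summed level was 70.3% and 77.5% of the control mean in cKO libraries, against 99.7% and 100.3% in controls. Of 10 markers of radial glia and progenitors 5 rose, with sums of 114% and 109% in cKO libraries against 99.4% and 100.6% in controls. Of 10 markers of ventrally born interneurons 5 fell, with sums of 81.9% and 82.9% in cKO libraries against 96.6% and 103% in controls, and of the 7 dorsal telencephalic markers 4 rose and 1 (Tbr1) fell. Without control replicate 1 or control replicate 2 these counts were smaller: 4 and 3 neuronal markers fell, 0 and 0 progenitor markers rose, 1 and 1 interneuron markers fell, and 0 and 0 dorsal telencephalic markers passed. Each of those fits leaves 1 control library, and calls were also far fewer over the whole table. Without cKO replicate 1, 3 progenitor markers rose. With DESeq2 3 interneuron markers fell, and 5 dorsal telencephalic markers rose and 0 fell. Of 7 tested meningeal and mesenchymal markers 3 rose by limma and 1 by edgeR or DESeq2, with 0 without either control, 1 without cKO replicate 1 and 6 without cKO replicate 2. Among mural cell markers and among microglial markers 0 of 6 passed limma, edgeR or DESeq2. At an unadjusted limma p under 0.05 were 3 mural and 0 microglial markers, beside 4314 of the 14324 genes tested. Without cKO replicate 2, mural markers passed in both directions. Of the 2 erythroid markers tested 1 fell (0 without control replicate 2, 2 without cKO replicate 2). The erythroid sum was 34.4% and 50.45% of the control mean in cKO libraries, against 89.1% and 110.9% in controls. Xist and 4 Y-linked genes did not pass in limma, edgeR or DESeq2, nor at an unadjusted p under 0.05. By sign, Efnb2 and the uncalled Efnb3 lay with the neuronal, interneuron, endothelial and erythroid sums, among others that were lower in cKO. Ephb3 lay with the progenitor, dorsal telencephalic and mesenchymal sums, which were higher in cKO. Because some sums were lower and others higher, a gene of either sign lies with some of them by construction. Of the 10 genes 6 had a negative and 4 a positive log2 change. The part of cell composition in these differences was not tested.

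**Figure D3:**
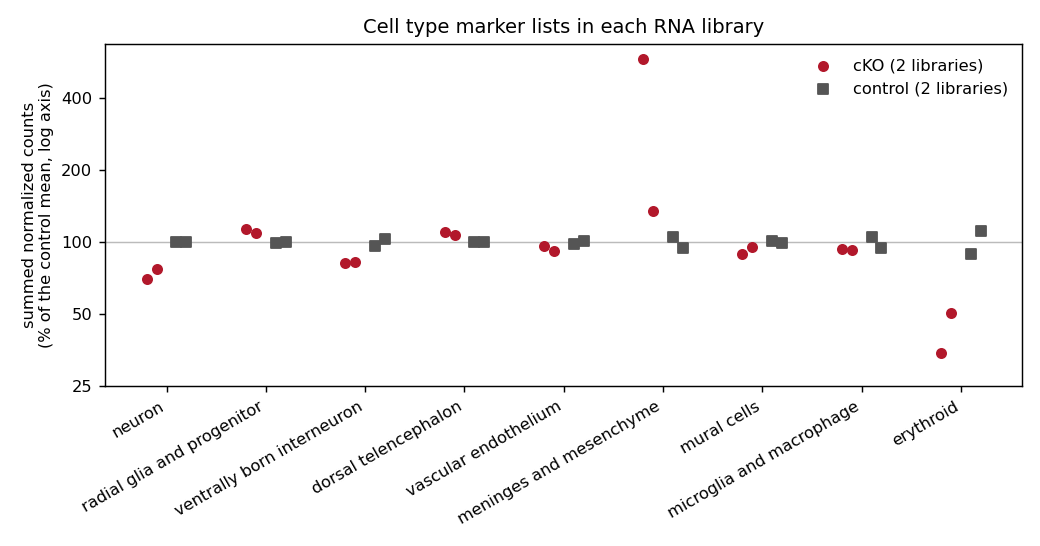
Summed normalized counts of each marker list in each RNA library as a percentage of the control mean, on a log axis, with cKO libraries (circles) left of control libraries (squares). Neuronal markers sit at 70.3% and 77.5% in cKO, and the mesenchymal sum of cKO replicate 1, 585%, stands apart.

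Many genes shared the profile of the called pair over the 4 libraries. By Euclidean distance between log2 values centred on each gene's mean, among genes averaging 50 or more normalized counts, the genes nearest to Ephb3 were Ttyh1 (distance 0.012), Prr11 (0.014) and Spata13 (0.015), and 540 genes lay within a distance of 0.1. Nearest to Efnb2 were Smim4 (0.018), Plgrkt (0.018) and Nfkbie (0.018), and 467 genes lay within 0.1. The genes compared were the 12457 at this level, less those with predicted names. The 3 nearest to Ephb3 passed the limma test. Of those nearest to Efnb2 only Plgrkt did (limma adjusted p = 0.0439, with 0.214 for Smim4 and 0.182 for Nfkbie). With 4 libraries in 2 groups, genes with a similar difference between the genotypes are close by construction.

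The starts of the 2 called genes, and that of Epha4, the gene with a peak in the authors' promoter class, are shown because a corepressor acts at regulatory DNA. Each is the RefSeq window from 250 bases before to 50 bases after a start site on GRCm38.p6 (mm10), written 5′ to 3′ on the gene's own strand, with capitals from the start site on. Efnb2 spans chr8:8617235-8661242 and Ephb3 chr16:21204620-21223309. The window of Efnb2 is chr8:8661193-8661492 on the minus strand, that of Ephb3 is chr16:21204545-21204844 on the plus strand and that of Epha4 is chr1:77515039-77515338 on the minus strand.
Efnb2: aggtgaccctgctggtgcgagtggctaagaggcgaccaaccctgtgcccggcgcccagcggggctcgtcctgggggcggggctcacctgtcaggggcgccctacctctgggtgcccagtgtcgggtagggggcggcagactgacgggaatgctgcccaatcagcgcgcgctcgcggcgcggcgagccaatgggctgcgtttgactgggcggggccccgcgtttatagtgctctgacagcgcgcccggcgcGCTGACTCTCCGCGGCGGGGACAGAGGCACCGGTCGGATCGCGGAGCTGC
Ephb3: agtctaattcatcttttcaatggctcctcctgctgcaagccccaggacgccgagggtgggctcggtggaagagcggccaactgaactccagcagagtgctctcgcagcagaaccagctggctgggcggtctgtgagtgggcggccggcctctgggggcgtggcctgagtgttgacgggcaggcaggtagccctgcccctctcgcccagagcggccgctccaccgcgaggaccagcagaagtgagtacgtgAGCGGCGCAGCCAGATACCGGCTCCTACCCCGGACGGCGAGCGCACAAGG
Epha4: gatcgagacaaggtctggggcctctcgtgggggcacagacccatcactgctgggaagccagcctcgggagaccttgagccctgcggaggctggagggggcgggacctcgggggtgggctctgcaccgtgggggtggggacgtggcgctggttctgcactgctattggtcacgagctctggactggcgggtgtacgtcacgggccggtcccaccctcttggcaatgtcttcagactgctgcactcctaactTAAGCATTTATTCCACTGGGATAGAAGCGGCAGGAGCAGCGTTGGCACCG

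Windows were found for 9 of the 10 genes (10 windows, with 2 for Epha7), and 0 of the 10 overlapped a listed peak. They held 14 to 38 CG pairs, beside a median of 7 over all 32851 windows. Both arms of the RE1 element, which binds Rest, a repressor that recruits CoREST proteins, were searched as CAGCACC and GGACAGC on both strands. The first is present in 7.14% and the second in 6.56% of all windows. The only match in the 10 windows was CAGCACC on the minus strand of Efnb1, shown in capitals within the first 60 bases of its window, chrX:99135811-99135870 on the plus strand.
Efnb1: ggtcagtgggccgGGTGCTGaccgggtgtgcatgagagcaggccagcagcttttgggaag
The other 9 windows do not hold these letters, which says nothing about binding.

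The ChIP-seq peaks lay in or near 6 of the 10 genes: 9 were named for Ephb2, 6 for Epha4 and 1 each for Epha7, Ephb1, Ephb3 and Efna5. None was named for Epha5, Efnb1, Efnb2 or Efnb3. Over the table, 19.4% of the 14324 tested genes had a peak named for them (not matched for gene length). By the authors' classes 16 lay in gene bodies, 1 in a promoter and 2 distal to a gene, whereas over all listed peaks 36.0% were in gene bodies and 23.1% in promoters. Only 11 of the 3376 genes named for a peak had more peaks than Ephb2, and 50 had more than Epha4. Per 100 kb of gene body the 10 genes together had 0.971 peaks, or 0.480 without Ephb2, beside 0.255 over 13136 tested protein-coding genes. Several peaks in one gene share that gene's chromatin and are not independent.

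Peak height, the authors' coverage at a peak in each library, was compared between Rcor2 ChIP and its controls as a description, since 2 libraries against 2 cannot give an exact permutation p below 0.333. In all 19 peaks both Rcor2 heights exceeded both IgG heights, as in 98.9% of all peaks; the peak names state that the peaks were called against IgG. Against input, both Rcor2 heights exceeded both input heights in 7 of the 19 peaks, or 36.8%, beside 40.3% of all listed peaks, and in 1 peak both fell below, beside 9.08%. The 7 peaks were 3 of Epha4 and 1 each of Epha7, Ephb1, Efna5 and Ephb2. The count depends on Rcor2 replicate 1, whose heights were lower (median 14 over the 19 peaks, against 19 in Rcor2 replicate 2): without it 13 of the 19 peaks exceeded input, beside 74.7% of all peaks. Without input replicate 1 the count was 11, beside 54.4% of all peaks. With each library's heights divided by its median over all peaks, the count stayed at 7, beside 29.8% of all peaks. On these scaled heights more than 1 peak fell below both inputs. Among them were the Epha4 promoter peak (1.308 and 1.158 against 2 and 1.833) and the Ephb3 peak (1.077 and 1 against 1.615 and 1.5). The share of all peaks below input on this scale was not counted.

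**Figure D4:**
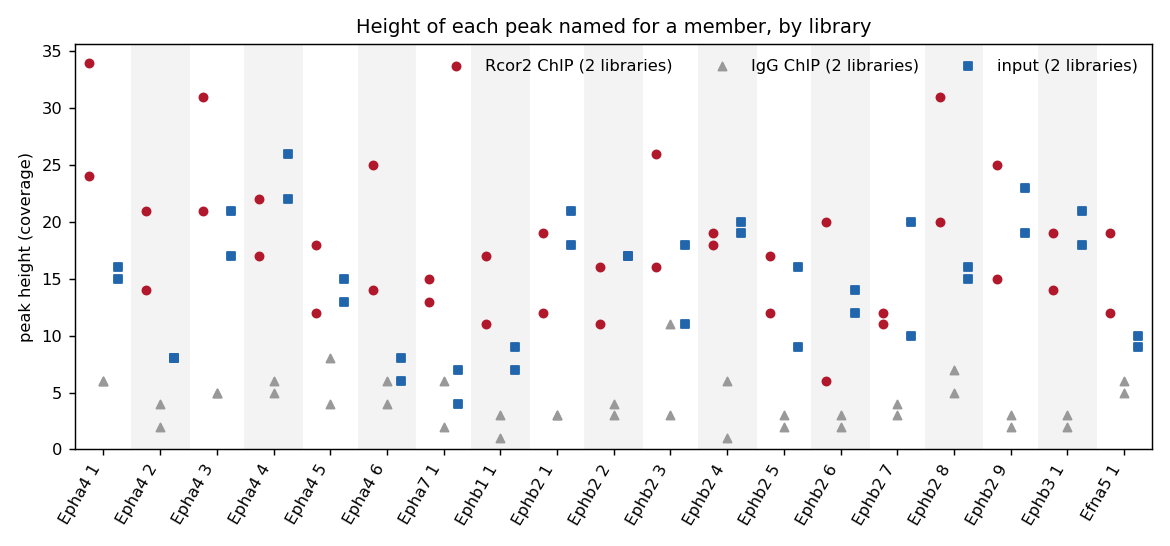
Height (coverage) of each of the 19 peaks in the 2 Rcor2 ChIP libraries (circles), 2 IgG libraries (triangles) and 2 input libraries (squares), with peaks of a gene numbered by position along the chromosome. Rcor2 heights lie above IgG in all 19 peaks and above both input heights in 7.

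Epha4 carried 3 peaks above input. The one at chr1:77378133-77378575 (mm10) in the gene body, 136.7 kb downstream of the start, had Rcor2 heights of 24 and 34, against IgG heights of 6 and 6 and input heights of 16 and 15. The gene body peak at chr1:77450654-77450890 had Rcor2 heights of 14 and 21 against input heights of 8 and 8. The distal peak at chr1:77533056-77533441, with its summit at -18.1 kb, had Rcor2 heights of 14 and 25 against input heights of 6 and 8. In these peaks every Rcor2 library exceeded every input library. The promoter peak at chr1:77516016-77516401, with its summit at -1169 bases relative to the start, did not: its Rcor2 heights were 17 and 22, its IgG heights 6 and 5 and its input heights 26 and 22. A further gene body peak 8.35 kb from the start had Rcor2 heights of 21 and 31 against input heights of 21 and 17, and a second distal peak 12 and 18 against 15 and 13.

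All 9 peaks of Ephb2 lay in its gene body of 188.8 kb on chromosome 4. The peak at chr4:136816889-136817432, 18.9 kb from the start, was the one above input, with Rcor2 heights of 20 and 31, IgG heights of 7 and 5 and input heights of 15 and 16. Its fold over IgG in the authors' list, 7.25, was also the highest of the 19 peaks, whose median was 4.16. The peak at chr4:136773649-136773854 went the other way, with Rcor2 heights of 11 and 16 against input heights of 17 and 17. In the other 7 Ephb2 peaks the Rcor2 and input heights overlapped or met, and over all 9 the median log2 ratio of mean Rcor2 to mean input height was -0.07, beside 0.42 over all listed peaks.

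**Figure D5:**
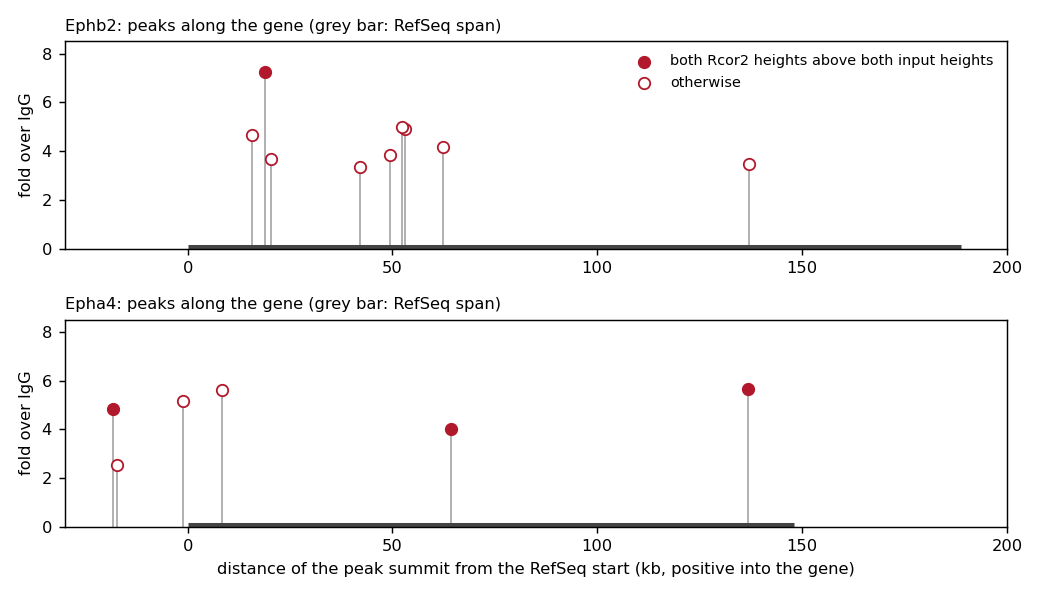
Peaks along Ephb2 (upper) and Epha4 (lower) by distance of the summit from the RefSeq start in kb, positive into the gene, with the authors' fold over IgG as height and the gene span as a bar at the base. Filled points, 1 in Ephb2 and 3 in Epha4, have both Rcor2 heights above both input heights.

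The single peaks of the other 4 genes all lay in gene bodies. In Epha7 the peak at chr4:28901371-28901794 had Rcor2 heights of 13 and 15 against input heights of 4 and 7. In Ephb1 the peak at chr9:102198081-102198306 had 11 and 17 against 7 and 9. In Efna5 the peak at chr17:62607521-62607692 had 12 and 19 against 9 and 10. These 3 exceeded input, whereas the Ephb3 peak at chr16:21210682-21211090, 6.11 kb from the start, had Rcor2 heights of 14 and 19 against input heights of 21 and 18. Heights of this size rest on few reads.

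Set beside the RNA, the gene with the most peaks, Ephb2, had a log2 change of 0.03, and Epha4 with 6 peaks one of -0.08. Efnb2, which fell, had no listed peak, and Ephb3, which rose, had 1 that was not above input. The other 12 family genes had 7 peaks in 5 genes (Efna2, Efna4, Epha2, Epha3 and Ephb4), 0 of them above input by the same rule and 2 below it, both in Epha3.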

How the data were processed

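RNA-seq (4 libraries) and ChIP-seq (6 libraries) of E14.5 midline cortex were analysed. Per the submitters' processing notes HISAT2 2.1.0, Trim Galore and mm10 were used, with no role given; the counter, annotation and peak caller are not stated there. The authors deposited normalized counts, per the file headers, a signal value per gene and library; every value was a whole multiple of one step per library (100% within 1e-04), so read counts were recovered. The authors' log2 fold changes, their test score and p-values come from their deposited table. The ChIP-seq table holds the authors' peak heights and pileup (coverage signal), fold enrichment and −log10 p and q; no depth scaling is stated.

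limma 3.58.1 (R 4.3.3) was fitted to log2(normalized count + 1), cKO against control without a replicate term, for 14324 genes with a mean of at least 10 (2014 left out), with Benjamini-Hochberg adjustment and calls at an adjusted p under 0.05; it was tested on simulated data. Alternatives were edgeR 4.0.16 and DESeq2 1.42.0 on the recovered reads, other scalings, filters and pseudocounts, a replicate block, and leaving out each library. The deposited values being normalized, edgeR was not the main test. Log2 ratios of heights add 0.5 to each mean. Gene spans and promoter windows came from RefSeq (GRCm38.p6). The text names all 10 genes and their peaks, all measured family genes, up to 6 called signalling partners by adjusted p, and the 3 nearest profiles for each called gene; Abl1, Inppl1, Grb2 and Tbr1 were named after their values were seen. The genes and lists were chosen with earlier results of these data known. One marker of the dorsal telencephalon list is not reported here.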

Additional observations from a re-analysis of the deposited data

How the results depend on the processing

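Over 13 alternatives for each of the 10 genes, 122 of 130 values kept their sign and their side of the threshold. The 2 called genes were less stable: Efnb2 kept its call in 11 of the 13 alternatives and Ephb3 in 8. Of the 130 values 1 changed sign (Efna5, 0.012 without cKO replicate 2, with -0.31 to 0.012 on leaving out 1 library). The number of the 10 genes called was 2, and 1 with edgeR or DESeq2 (higher 0, lower 1); leaving out 1 library gave 0 to 2 in all, 0 to 1 higher and 0 to 1 lower. Among the other family genes 2 were called higher and 3 lower, with 1 and 1 by DESeq2 and, on leaving out 1 library, 0 to 2 and 0 to 3. Among the signalling partners 3 were called higher, with 1 when no filter on low values was used and 1 to 4 on leaving out 1 library, and 6 lower, with 0 to 9. Efna1, near 0 throughout, changed sign with TMM scaling (0.011), edgeR (0.0091) and DESeq2 (0.0090), without control replicate 2 (0.11) and without cKO replicate 2 (0.03), with -0.12 to 0.11 on leaving out 1 library. Leaving out a library leaves 1 in its group, assumed to vary like the other group. Of all tested genes edgeR called 12.2% and DESeq2 11.0%. Over all genes 2070 were called, 1383 without cKO replicate 1 and 3453 without cKO replicate 2. The labels give no pairing; deviations of same-numbered libraries correlated at 0.242 over the genes, and with the replicate number as a block 2076 genes were called, with limma adjusted p = 0.00861 for Efnb2 and 0.0407 for Ephb3, and no call among the 10 genes changed. Over all alternatives the adjusted p ran from 0.000535 to 0.0997 for Efnb2 and from 0.00932 to 0.182 for Ephb3. Of the 19 peaks 7 exceeded input, 7 to 13 on leaving out 1 library (13 without Rcor2 replicate 1, 11 without input replicate 1), and 19 exceeded IgG, or 4 after division by each library's median, which removes the overall difference between Rcor2 and IgG libraries by construction. With 2 libraries a group and heights of 1 to 34, small differences were not detectable.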
